A study of Mus musculus with 7 samples.

Results

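The complement cascade and the MHC class I pathway were followed in the cerebral cortex of mice without a working creatine (Cr) transporter through 9 genes: the C1q chain genes *C1qa*, *C1qb* and *C1qc*, the complement components *C4b* and *C3*, the C1 inhibitor gene *Serping1*, and the class I genes *B2m*, *H2-K1* and *H2-D1*. They were picked by symbol out of the 24346 genes of the expression table, with the difference between the genotypes already known, so their own values are given as a description and carry no test. Of the 9 genes, 8 reached a mean of 1 FPKM (fragments scaled to exon length and to the mapped reads of the library) over the animals and entered the fit across 12988 genes, and *C3* did not.

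RNA came from the cortex of 4 CrT-/y males (labelled Slc6a8 KO, numbered 0 to 3) and 3 CrT+/y males (labelled WT, numbered 1 to 3) on a C57BL/6J background, all at postnatal day 100. The knockout lacks exons 5 to 7 of the X-linked *Slc6a8* in every cell and was compared with wild-type littermates. Each animal gave 1 library, and neither group received a treatment. *Slc6a8*, which encodes the transporter, averaged 14.4 ± 1.41 FPKM (SD, n = 4) in the knockout and 30.0 ± 2.15 FPKM (SD, n = 3) in the wild-type group, matching the labels.

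C1q is built from 3 kinds of chain and starts the classical complement pathway when it binds a target. Its partner proteases then cleave C4 and C2, which leads to cleavage of C3, while the C1 inhibitor encoded by *Serping1* blocks the proteases. In the brain, C1q is made mainly by microglia and C4 largely by glia, and complement is known for tagging synapses that microglia remove. MHC class I molecules pair a heavy chain, such as those encoded by *H2-K1* and *H2-D1*, with beta-2 microglobulin (*B2m*) to show peptides at the cell surface, and neurons and glia carry them as well as immune cells.

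Class I genes are known to answer to interferon and NF-kB signals through sites just upstream of their start, and these stretches are shown for *H2-K1*, *H2-D1* and *B2m* as a description. They were taken from RefSeq on GRCm38.p6, 190 bases before the start, 5′ to 3′ on the strand of the gene. *H2-K1* lies at chr17:34000348-34000537 (minus strand), *H2-D1* at chr17:35262904-35263093 (plus strand) and *B2m* at chr2:122147497-122147686 (plus strand). RefSeq starts *H2-D1* within the span that GENCODE gives the gene, so the stretch shown overlaps that span. Capitals mark matches to the NF-kB consensus and to the spaced repeats GAAANNGAA and GAANNGAA of interferon regulatory factors, on either strand.
H2-K1: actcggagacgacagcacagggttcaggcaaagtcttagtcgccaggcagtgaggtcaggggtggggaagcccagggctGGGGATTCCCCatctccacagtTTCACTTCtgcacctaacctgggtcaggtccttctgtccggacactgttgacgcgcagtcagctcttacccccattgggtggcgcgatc
H2-D1: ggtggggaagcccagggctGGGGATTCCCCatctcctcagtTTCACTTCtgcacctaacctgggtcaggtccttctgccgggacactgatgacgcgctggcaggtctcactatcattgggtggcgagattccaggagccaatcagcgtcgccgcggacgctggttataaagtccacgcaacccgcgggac
B2m: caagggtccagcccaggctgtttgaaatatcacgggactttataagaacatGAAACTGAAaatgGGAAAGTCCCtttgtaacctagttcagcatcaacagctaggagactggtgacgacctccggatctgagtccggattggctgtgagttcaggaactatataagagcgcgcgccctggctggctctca

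The 250 bases before to 50 after each start were searched for 32851 promoters. The NF-kB consensus was found in 4.51% of them and in 4 of the 6 members that have an entry (*B2m*, *C1qc*, *H2-D1* and *H2-K1*, the *C1qc* sequence not being shown). GAAANNGAA was found in 8.56% of all promoters and among the members in *B2m*. The shorter GAANNGAA, a motif of different spacing searched after the sequences had been seen, was found in 20.1% of all promoters. Among the members it was found in *H2-D1* and *H2-K1*. The promoters of *H2-K1* and *H2-D1* matched at 206 of 228 aligned columns (90.4%), so their shared motifs are not separate observations. *C1qb* and *C3* had none of these letters in the window, and *C1qa*, *C4b* and *Serping1* have no entry. A match of letters describes the sequence and was not tied to the values.

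The C1q chain genes sit side by side on chromosome 4, *C1qa* at chr4:136895917-136898803, *C1qb* at chr4:136880129-136886187 and *C1qc* at chr4:136889804-136893065 (GRCm38, all on the minus strand). They were close to one another in FPKM in both genotypes, and none moved by as much as 10% in its mean. *C1qa* measured 35.5, 38.9, 36.8 and 34.5 FPKM across CrT-/y libraries (animals 0, 1, 2 and 3, an order kept in all such sentences) and 39.8, 38.9 and 39.9 FPKM across CrT+/y libraries (animals 1, 2 and 3). No CrT-/y value reached the CrT+/y range, but CrT-/y animal 1 missed CrT+/y animal 2 only in the sixth digit (38.8605 against 38.8606 FPKM), so the groups touched. The mean was 36.4 ± 1.89 FPKM (SD, n = 4) against 39.5 ± 0.564 FPKM (SD, n = 3), a log2 fold change of -0.12 with a standard error of 0.056.

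*C1qb* measured 28.4, 30.5, 31.9 and 28.6 FPKM across CrT-/y and 29.2, 30.9 and 38.1 FPKM across CrT+/y libraries. The groups overlapped, with CrT+/y animal 3 above the other 6, and the log2 fold change was -0.13 (SE 0.091). *C1qc* measured 26.8, 30.3, 30.5 and 27.5 FPKM across CrT-/y and 24.9, 22.8 and 34.8 FPKM across CrT+/y libraries. CrT+/y animal 3 was again the highest and CrT+/y animals 1 and 2 were the lowest. The log2 fold change of *C1qc* was 0.09 (SE 0.13), and it was 0.27 without CrT+/y animal 3 and -0.04 without CrT+/y animal 2, so 1 wild-type library set its sign.

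The ratio of *C1qc* to *C1qb* within a library does not depend on how libraries were scaled to each other. It was 0.942, 0.993, 0.957 and 0.962 in the CrT-/y animals and 0.852, 0.736 and 0.911 in the CrT+/y animals. The groups did not overlap, and the spread lay in the CrT+/y animals (0.964 ± 0.0215, SD, n = 4, against 0.833 ± 0.0889, SD, n = 3). For 13.1% of all tested genes the ratio to *C1qb* was likewise higher in every CrT-/y animal. The ratios of *C1qb* and *C1qc* to *C1qa* overlapped between the genotypes.

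*C4b* (chr17:34728380-34743882, minus strand), which encodes the C4 protein cleaved after C1q binds, had the largest difference of the 8 tested members. It measured 5.98, 7.13, 9.05 and 9.90 FPKM across CrT-/y and 2.38, 4.36 and 4.32 FPKM across CrT+/y libraries. The groups were apart, the lowest CrT-/y animal lying above the highest CrT+/y animal, and CrT+/y animal 1 was the lowest of all. The mean was 8.02 ± 1.79 FPKM (SD, n = 4) against 3.69 ± 1.13 FPKM (SD, n = 3), 2.17 times as high, with a log2 fold change of 1.12 (SE 0.23).

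Reads of *C4b* can be hard to tell from those of its near copy *C4a*. Of the 5280 windows of 100 bases in the *C4b* transcript, 871 (16.5%) were also found in *C4a*. Because the authors kept only uniquely aligned reads, those stretches may count for neither gene. *C4a* was listed at 0.190 to 0.336 FPKM over the 7 animals, and its groups overlapped.

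*C3* (chr17:57203970-57228136, minus strand), the point where all complement pathways meet, was near the lower end of what the table holds. It measured 0.0717, 0.124, 0.112 and 0.271 FPKM across CrT-/y and 0.00617, 0.175 and 0.0461 FPKM across CrT+/y libraries. The groups overlapped and the level was too low for the fit, so no fold is given. *C4b* was thus listed well above *C3* in each of the 7 libraries on this per-length scale.

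*Serping1* (chr2:84765387-84775444, minus strand), the inhibitor of the C1 proteases, measured 4.40, 5.98, 4.91 and 6.68 FPKM across CrT-/y and 3.22, 5.39 and 2.88 FPKM across CrT+/y libraries. The groups overlapped because CrT+/y animal 2 lay among the CrT-/y animals. The mean was 5.50 ± 1.03 FPKM (SD, n = 4) against 3.83 ± 1.36 FPKM (SD, n = 3), with a log2 fold change of 0.54 (SE 0.21) that became 0.81 without CrT+/y animal 2.

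**Figure D1:**
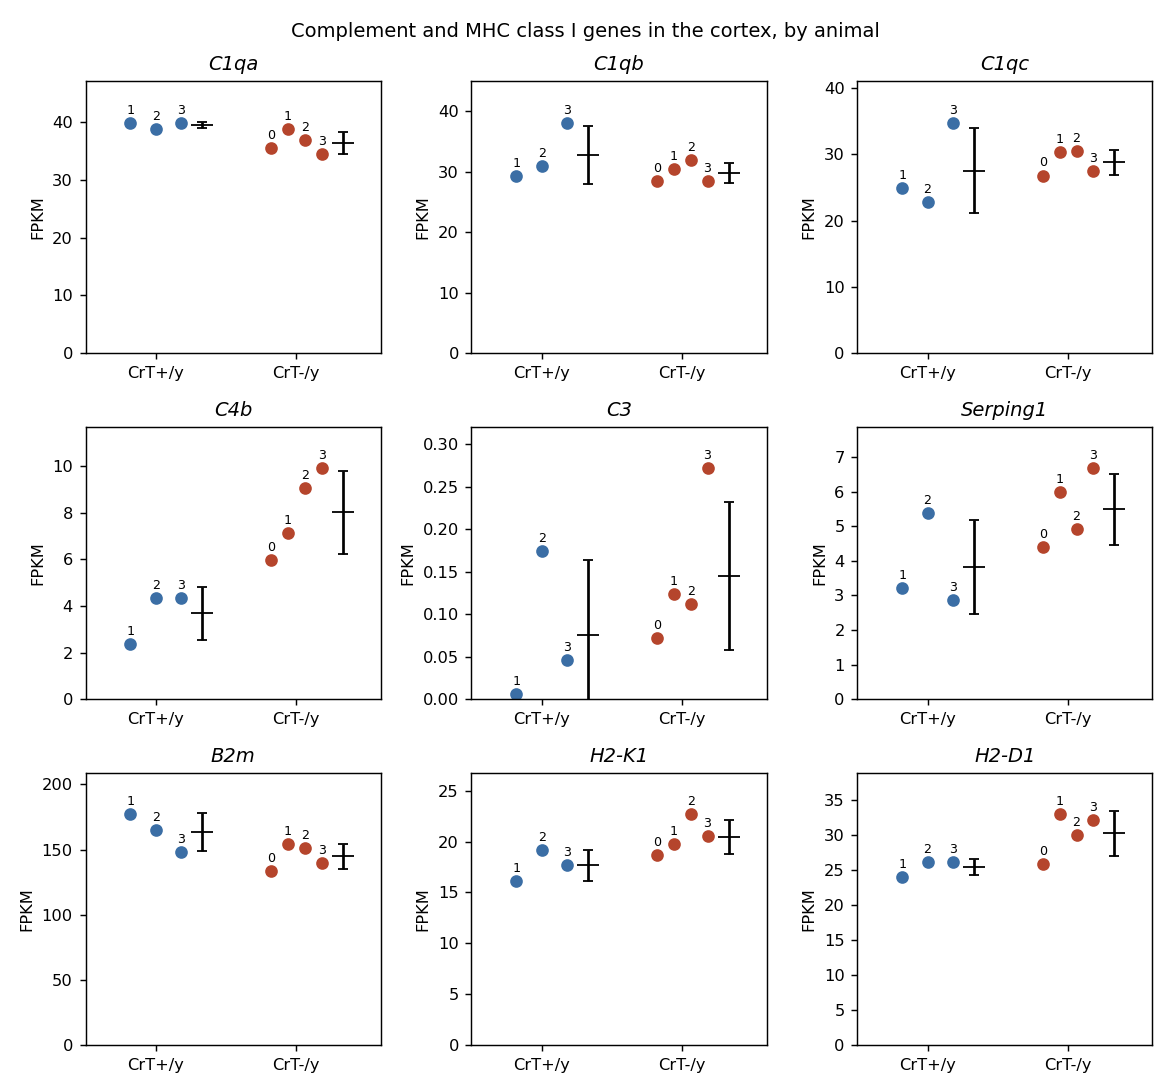
FPKM of the 9 genes in each animal, with CrT+/y in blue and CrT-/y in red, the animal's number above its point, and the group mean ± SD beside the points (the lower bar of C3 in CrT+/y runs below 0 and ends at the axis). The axes start at 0 and differ between genes. C4b is at 5.98 FPKM or above in CrT-/y and at 4.36 FPKM or below in CrT+/y animals, while the C1q genes and B2m lie close together.

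*B2m* (chr2:122147686-122153083, plus strand), the light chain that all classical class I molecules share, was the most abundant of the 9 genes. It measured 134, 155, 151 and 140 FPKM across CrT-/y and 177, 165 and 148 FPKM across CrT+/y libraries. The groups overlapped through CrT+/y animal 3, and the log2 fold change was -0.17 (SE 0.077).

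The heavy chain genes were on the other side of 0. *H2-K1* (chr17:33996017-34000347, minus strand) measured 18.7, 19.7, 22.7 and 20.6 FPKM across CrT-/y and 16.1, 19.2 and 17.7 FPKM across CrT+/y libraries. *H2-D1* (chr17:35262730-35267499, plus strand) measured 25.9, 33.0, 29.9 and 32.2 FPKM across CrT-/y and 24.04, 26.1 and 26.1 FPKM across CrT+/y libraries. In both genes the overlap was CrT-/y animal 0, which lay within the CrT+/y range, and the other 3 CrT-/y animals were above all CrT+/y animals. The log2 fold change was 0.21 (SE 0.083) for *H2-K1* and 0.25 (SE 0.086) for *H2-D1*. None of the 100-base windows of *H2-K1* was found in another gene, whereas 93 of the 2003 windows of *H2-D1* (4.64%) were shared with 9 other genes, *H2-Q1* among them, so its level is less certain.

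Set against *B2m* within the same library, the heavy chains were separated by genotype. The ratio of *H2-K1* to *B2m* was 0.140, 0.128, 0.150 and 0.147 in the CrT-/y animals and 0.0909, 0.116 and 0.119 in the CrT+/y animals. The ratio of *H2-D1* to *B2m* was 0.194, 0.213, 0.198 and 0.230 in the CrT-/y animals and 0.136, 0.158 and 0.176 in the CrT+/y animals. Neither ratio overlapped between the genotypes, with means 1.30 and 1.33 times as high in CrT-/y, while 15.5% of all tested genes also had a ratio to *B2m* that was higher in every CrT-/y animal. The ratio of *H2-D1* to *H2-K1* overlapped (1.48 ± 0.162, SD, n = 4, against 1.44 ± 0.0713, SD, n = 3).

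**Figure D2:**
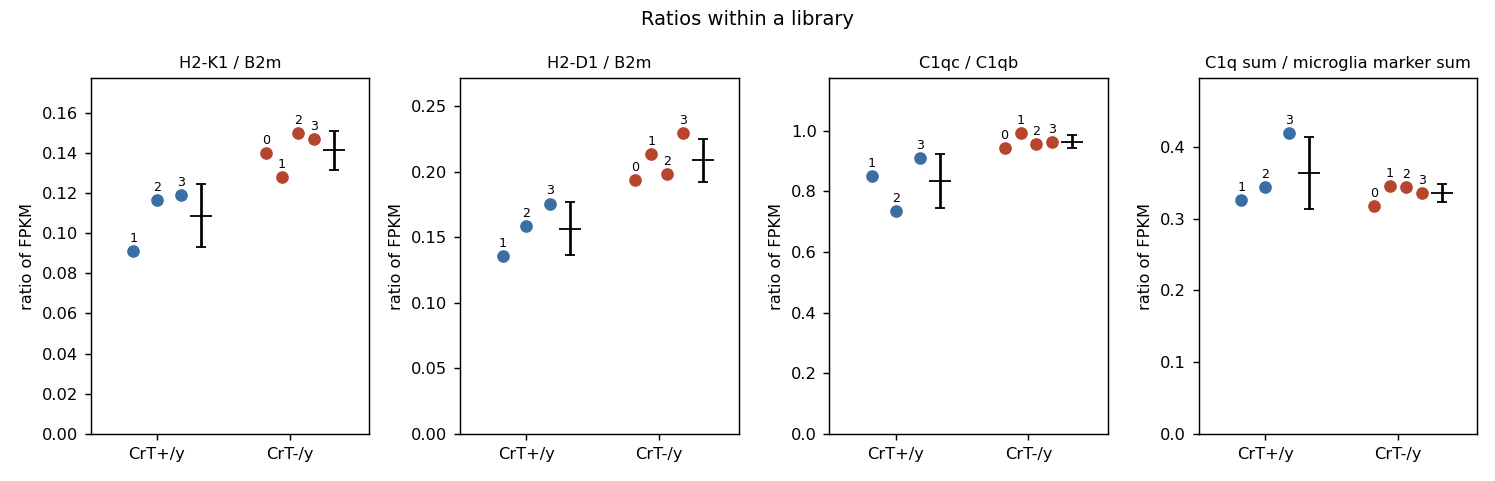
Ratios of FPKM within each library for H2-K1 to B2m, H2-D1 to B2m, C1qc to C1qb, and the summed C1q chains to the summed microglia markers, with each animal's number above its point and the group mean ± SD at the side. The first 3 ratios do not overlap between CrT+/y (blue) and CrT-/y (red), and the last one does.

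Of the 8 tested members, 1 was called at an adjusted p under 0.1 (limma, Benjamini-Hochberg over all tested genes), *C4b*, in the higher direction, and 0 were called lower. *C4b* was no longer called without CrT-/y animal 1 or without CrT-/y animal 2. Among all tested genes 2.90% were called higher and 7.25% lower in CrT-/y animals. By plain separation of the groups, *C4b* was higher in every CrT-/y animal and *C1qa* lower, against 6.57% of all tested genes higher and 15.0% lower. Since the genes were chosen on this contrast, nothing is read from these counts. The log2 fold change was above 0 for 5 of the 8 (median 0.15), and the median over all tested genes was -0.03.

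**Figure D3:**
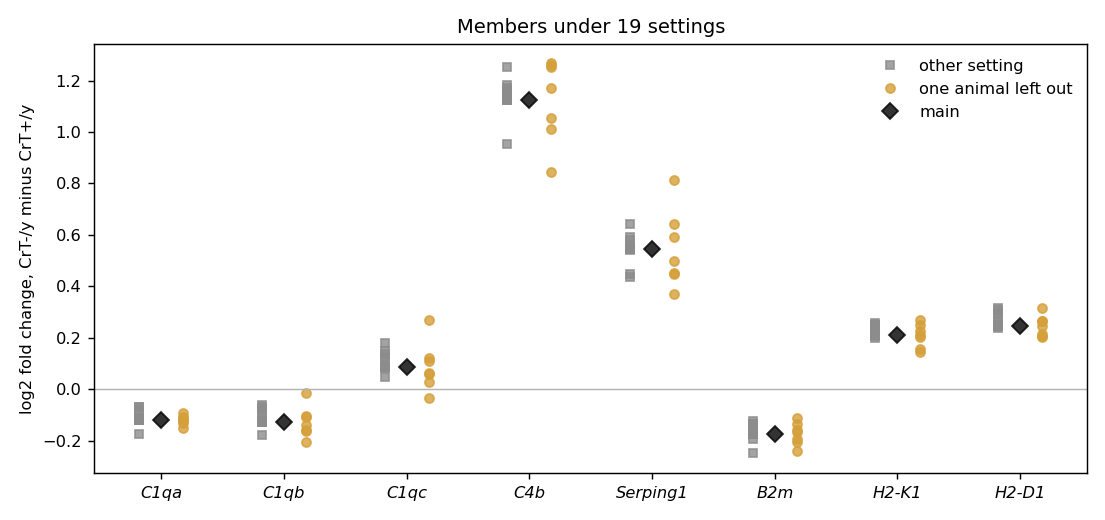
Log2 fold change (CrT-/y minus CrT+/y) of the 8 tested members as reported (black diamonds), with 1 animal left out (yellow circles) and under the other settings of the fit (grey squares). Serping1 has no value at a minimum mean of 5 FPKM. C4b stays between 0.84 and 1.27, and of the 8 only C1qc has values on both sides of 0.

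The members also differed in how they varied from animal to animal, given here over the 7 libraries as Pearson's r of log2 values with no p, since depth and tissue are shared by all genes of a library. *C4b* varied with *H2-K1* (r = 0.91) and *H2-D1* (r = 0.86), and after the genotype means were taken out r was 0.83 and 0.63. *C1qb* and *C1qc* varied together within genotypes (r = 0.92), and their r with *C4b* was -0.16 and 0.34 over all animals and 0.53 and 0.28 within genotypes. *B2m* ran against *C4b* (r = -0.70, and -0.32 within genotypes).

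The tissue holds many cell types, and in bulk RNA fewer cells of a type and less RNA per cell cannot be told apart. For the calls within the marker lists here and below, the shares over all tested genes were 2.90% higher and 7.25% lower. The 15 microglia markers summed to 269 to 289 FPKM in CrT-/y and to 269 to 288 FPKM in CrT+/y animals. *Trem2*, a microglial lipid receptor (log2 fold change 0.42, limma adjusted p = 0.039), and *Siglech*, a microglial lectin (0.45, adjusted p = 0.080), rose, *Selplg* fell (-0.53, adjusted p = 0.075), and the other 12 did not pass the test. Each of these 3 calls was lost without CrT-/y animal 1, CrT-/y animal 2 or CrT+/y animal 1, and those of *Siglech* and *Selplg* in further fits. Per unit of this sum, *C1qa* was 0.129 ± 0.00429 (SD, n = 4) against 0.144 ± 0.00526 (SD, n = 3), and *B2m* 0.512 ± 0.0299 against 0.593 ± 0.0356, both lower in every CrT-/y animal, as were 19.4% of all tested genes. *C4b* was higher in every CrT-/y animal on this scale too (2.11 times in its mean), as were 3.36% of all tested genes, and the other 6 members overlapped. Against the summed astrocyte markers in place of microglia, *C1qa* turned to a log2 ratio of 0.02 and overlapped, as did *B2m* (-0.03). On that scale *C4b* and, by 0.0143459 against 0.0143404, *H2-K1* were higher in every CrT-/y animal and 0 members were lower, with 14.4% of all tested genes higher and 3.16% lower. The summed C1q chains made 0.318 to 0.345 of the microglia sum in CrT-/y and 0.326 to 0.420 in CrT+/y animals. With the microglia sum itself, r was -0.03 for *C4b* over all animals and -0.80 within genotypes. For *H2-K1* it was 0.04 (-0.39 within genotypes) and for *H2-D1* 0.05 (-0.41). The part of microglia in these values was not tested.

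Of the reactive astrocyte markers, *Gfap* and *Vim* were set singly against the members, and the others only as part of a sum. For *Vim*, r was 0.89 with *C4b* (0.86 within genotypes), 0.78 with *H2-K1* (0.60) and 0.90 with *H2-D1* (0.82). *Vim* did not pass the test (log2 fold change 0.41, limma adjusted p = 0.18). For *Gfap*, r was 0.85 with *H2-K1* (0.81) and 0.79 with *H2-D1* (0.71). *Gfap*, an intermediate filament of astrocytes, measured 42.7, 52.9, 64.5 and 72.5 FPKM across CrT-/y and 34.6, 51.9 and 51.2 FPKM across CrT+/y libraries. Its groups overlapped and it did not pass the test (log2 fold change 0.34, limma adjusted p = 0.31). *C4b* and *Gfap* stood in the same order within the 4 CrT-/y and within the 3 CrT+/y animals. Their r was 0.87 over the 7 and 0.98 after the genotype means were removed. The share of all tested genes with an r this high was not computed. The summed 12 reactive astrocyte markers were 87.5 to 135 FPKM in CrT-/y and 79.4 to 108 FPKM in CrT+/y animals, and r with this sum, to which *Gfap* gave the most, was 0.85 for *C4b*, 0.86 for *H2-K1* and 0.87 for *H2-D1*. The sum differed between genotypes by 0.30 on the log2 scale and the list's median deviation by 0.17, and 6 of the 10 tested markers had a log2 fold change above 0. *Srgn*, *Osmr* (-0.18), *S1pr3* (-0.04) and *Lcn2* (-2.55) were on the other side. Of the 10 tested, 1 was called lower (*Srgn*, a proteoglycan core, -0.42, limma adjusted p = 0.046, lost without CrT-/y animal 1, 2 or 3 or CrT+/y animal 1) and 0 higher. *Serpina3n* stood at 24.2 and 26.6 FPKM in CrT-/y animals 1 and 2 and at 5.05 to 6.92 FPKM in the other 5, and *Lcn2* reached 10.2 FPKM in CrT+/y animal 3 and 0.661 FPKM or less elsewhere. The 10 general astrocyte markers summed to 1171 to 1303 FPKM in CrT-/y and 1282 to 1488 FPKM in CrT+/y animals, with 1 called lower (*Sox9*, lost in 12 of 18 alternatives, each rescaling included) and 0 higher. With the general astrocyte sum r was negative: -0.86 for *C4b* (-0.71 within genotypes), -0.70 for *H2-K1* (-0.41) and -0.89 for *H2-D1* (-0.78). The part of astrocyte state in these values was not tested.

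*Serping1* varied most closely with markers of fibroblasts and meninges, the covering of the brain that can stay on the cortex in dissection. Their 10 genes summed to 67.1, 76.9, 77.3 and 96.3 FPKM across CrT-/y and 56.3, 84.9 and 60.3 FPKM across CrT+/y libraries, with 1 called higher (*Slc6a13*, lost in 10 of 18 alternatives) and 0 lower. CrT+/y animal 2, the wild-type animal with high *Serping1*, was also the one high in these markers, and r with *Serping1* was 0.93 over the 7 animals and 0.92 within genotypes. The same sum had r = 0.75 with *C4b* (0.74 within genotypes), 0.75 with *H2-K1* (0.65) and 0.71 with *H2-D1* (0.60), and the ependymal sum had r = 0.78 with *C4b* (0.71) and 0.75 with *Serping1* (0.62). That animal also had a choroid plexus marker sum of 571 FPKM, against 54.9 to 120 FPKM in the other 6. The part of meningeal or ependymal tissue in *Serping1*, *C4b* and the heavy chains was not tested. The 7 perivascular macrophage markers summed to 4.95 to 5.55 FPKM in CrT-/y and 3.92 to 6.69 FPKM in CrT+/y animals, and the T cell genes *Cd3e* and *Cd3d* were at 0.129 FPKM or less in all 7. In the same blood and T cell list *Cd4* was higher, at 3.27, 3.71, 1.30 and 0.633 FPKM across CrT-/y and 0.406, 3.29 and 1.48 FPKM across CrT+/y libraries. *Ptprc* was at 0.769 to 1.17 FPKM over the 7 animals, and both genes overlapped between the genotypes. Endothelial cells also carry class I molecules, and their 10 markers summed to 131 to 148 FPKM in CrT-/y and 148 to 180 FPKM in CrT+/y animals, with 3 called lower (*Pecam1*, *Flt1* and *Ly6c1*, calls lost in 8, 3 and 11 of 18 alternatives) and 0 higher. The 10 oligodendrocyte markers summed to 912 FPKM in CrT-/y animal 3 and to 1277 to 1677 FPKM in the other 6. *Ermn* was called lower (-0.78, limma adjusted p = 0.057), a call lost in 5 of 18 alternatives. Neuron, ependymal and blood marker sums overlapped between the genotypes as well. Called among them were *Gad1* (0.24, limma adjusted p = 0.097), *Nrgn* (-0.37, adjusted p = 0.068) and *Tm4sf1* (0.38, adjusted p = 0.061). These calls were lost in 9, 8 and 6 of 18 alternatives. With the neuron sum r was -0.82 for *H2-K1* (-0.65 within genotypes), -0.71 for *C4b* (-0.34) and -0.58 for *H2-D1* (-0.14). The part of these cell types in the members' values was not tested.

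**Figure D4:**
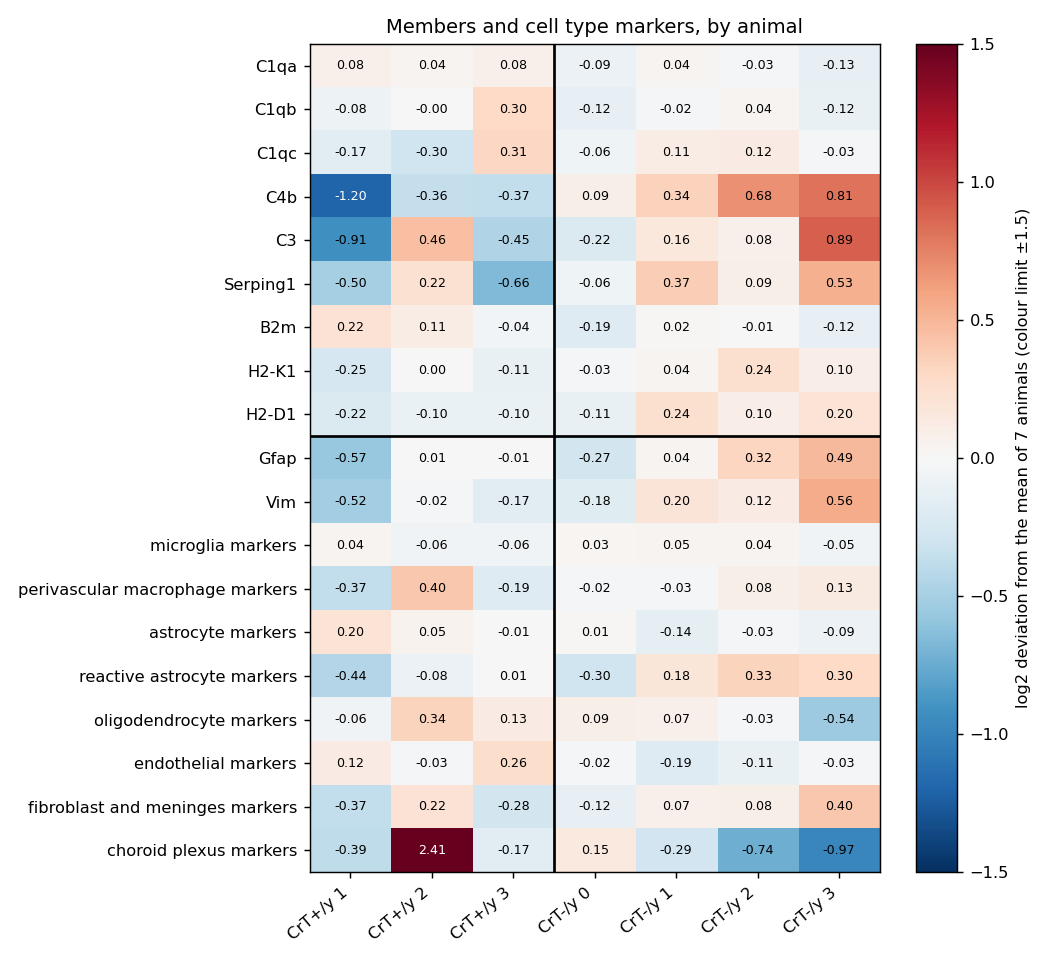
Log2 deviation of each animal from the mean of the 7 animals for the 9 members (above the horizontal line) and for Gfap, Vim and the summed marker lists (below it), with CrT+/y animals left and CrT-/y animals right of the vertical line. C4b runs from -1.20 in CrT+/y animal 1 to 0.81 in CrT-/y animal 3 with Gfap alongside, and the microglia markers stay within 0.06 of their mean.

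Beyond the members, 48 other complement genes were looked up, 17 of which reached 1 FPKM. Of these, 1 rose, 1 fell and 15 did not pass the test, and their median log2 fold change was -0.10. Over all tested genes 2.90% were called higher and 7.25% lower. *Colec12*, a membrane collectin that binds sugars and can start complement, was at 3.55, 4.38, 4.12 and 4.55 FPKM in CrT-/y and at 2.50, 3.24 and 2.22 FPKM in CrT+/y animals. It rose by 0.64 on the log2 scale (SE 0.14, limma adjusted p = 0.049). *Clu*, which encodes clusterin, an abundant astrocyte protein that restrains the terminal complex, was at 412 to 447 FPKM in CrT-/y and 497 to 509 FPKM in CrT+/y animals. It fell by 0.23 on the log2 scale (SE 0.055, limma adjusted p = 0.058). Both calls were lost when CrT-/y animal 1, 2 or 3 or CrT+/y animal 1 was left out. *Csmd3*, a membrane protein with complement control domains, had a log2 fold change of 0.30 and did not pass the test (limma adjusted p = 0.14).

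The classical pathway's proteases were weakly represented. *C1ra*, 1 of the proteases that C1q activates, was at 0.736 to 1.36 FPKM in CrT-/y and 0.683 to 1.53 FPKM in CrT+/y animals, and none of the 7 terminal pathway genes reached 1 FPKM. *C2*, which joins C4 in the enzyme that cleaves C3, stayed under the minimum too, and was singled out after its values were seen. It measured 0.726, 1.17, 0.998 and 0.653 FPKM across CrT-/y and 0.236, 0.328 and 0.296 FPKM across CrT+/y libraries, a separation with no overlap. Fitted with no minimum, its log2 fold change was 1.33 (SE 0.22, limma adjusted p = 0.050). *C5ar1*, the receptor for C5a, went the other way in the same fit, with 0.271 to 0.351 FPKM against 0.566 to 0.628 FPKM (log2 fold change -0.79, SE 0.15, limma adjusted p = 0.065). Among genes of the pathway lists under the minimum, *Cr2* was also lower and *H2-M5* and *Pirb* higher in every CrT-/y animal. The share of all genes under the minimum that separate in this way was not computed.

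Of 44 other genes of the MHC class I pathway, 24 reached 1 FPKM, 2 of which rose, 5 fell and 17 did not pass the test, and their median log2 fold change was 0.10. The shares over all tested genes were 2.90% higher and 7.25% lower. The list was chosen with earlier results of these data known, so nothing is read from its counts. The peptide loading genes split. *Tap1*, a subunit of the transporter that brings peptides into the ER, was at 1.57, 1.82, 2.08 and 2.00 FPKM in CrT-/y and at 0.992, 1.25 and 1.39 FPKM in CrT+/y animals, and rose by 0.59 on the log2 scale (SE 0.16, limma adjusted p = 0.072). *Calr*, *Pdia3* and *Canx* encode ER proteins that fold many glycoproteins besides class I. *Calr* was at 120 to 137 FPKM in CrT-/y and 183 to 198 FPKM in CrT+/y animals and fell by 0.56 on the log2 scale (SE 0.063, limma adjusted p = 0.0066). *Pdia3* fell by 0.38 (adjusted p = 0.025) and *Canx* by 0.16 (adjusted p = 0.091) in the same fit, and *Tap2*, *Tapbp*, *Tapbpl* and *Erap1* did not pass the test.

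All 5 tested genes of the immunoproteasome and its activator had log2 fold changes above 0, and 1 passed the test. *Psme1*, an activator subunit, was at 23.3 to 26.2 FPKM in CrT-/y and 20.5 to 21.5 FPKM in CrT+/y animals and rose by 0.25 on the log2 scale (SE 0.057, limma adjusted p = 0.051). *Psmb8*, a catalytic subunit, had a log2 fold change of 0.39 with an adjusted p of 0.13. Among 11 tested other heavy chain genes 2 fell and 0 rose, beside 7.25% of all tested genes called lower and 2.90% higher. *H2-T22* was at 2.86, 2.18, 3.15 and 2.27 FPKM in CrT-/y and at 5.01, 4.06 and 3.95 FPKM in CrT+/y animals (log2 fold change -0.72, SE 0.15, limma adjusted p = 0.042). *H2-T24* was at 3.82 to 4.69 FPKM in CrT-/y and 5.04 to 8.65 FPKM in CrT+/y animals (-0.69, SE 0.16, adjusted p = 0.056). Both are nonclassical class I genes with close relatives, so reads may be split or lost among copies. *Calr* was called under each of the 18 alternatives and *Pdia3* under 17, the exception being the fit without CrT-/y animal 1, whereas the other 5 calls were lost without CrT-/y animal 1, CrT-/y animal 3 or CrT+/y animal 1. *H2-T24* and *Tap1* were also lost without CrT-/y animal 2 or CrT+/y animal 2, *Psme1* without CrT-/y animal 0 or 2 and under the length correction. *Canx* was lost in 13 of 18 alternatives, among them quantile, upper quartile and median scaling, the length correction and each fit without 1 animal other than CrT+/y animal 3.

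**Figure D5:**
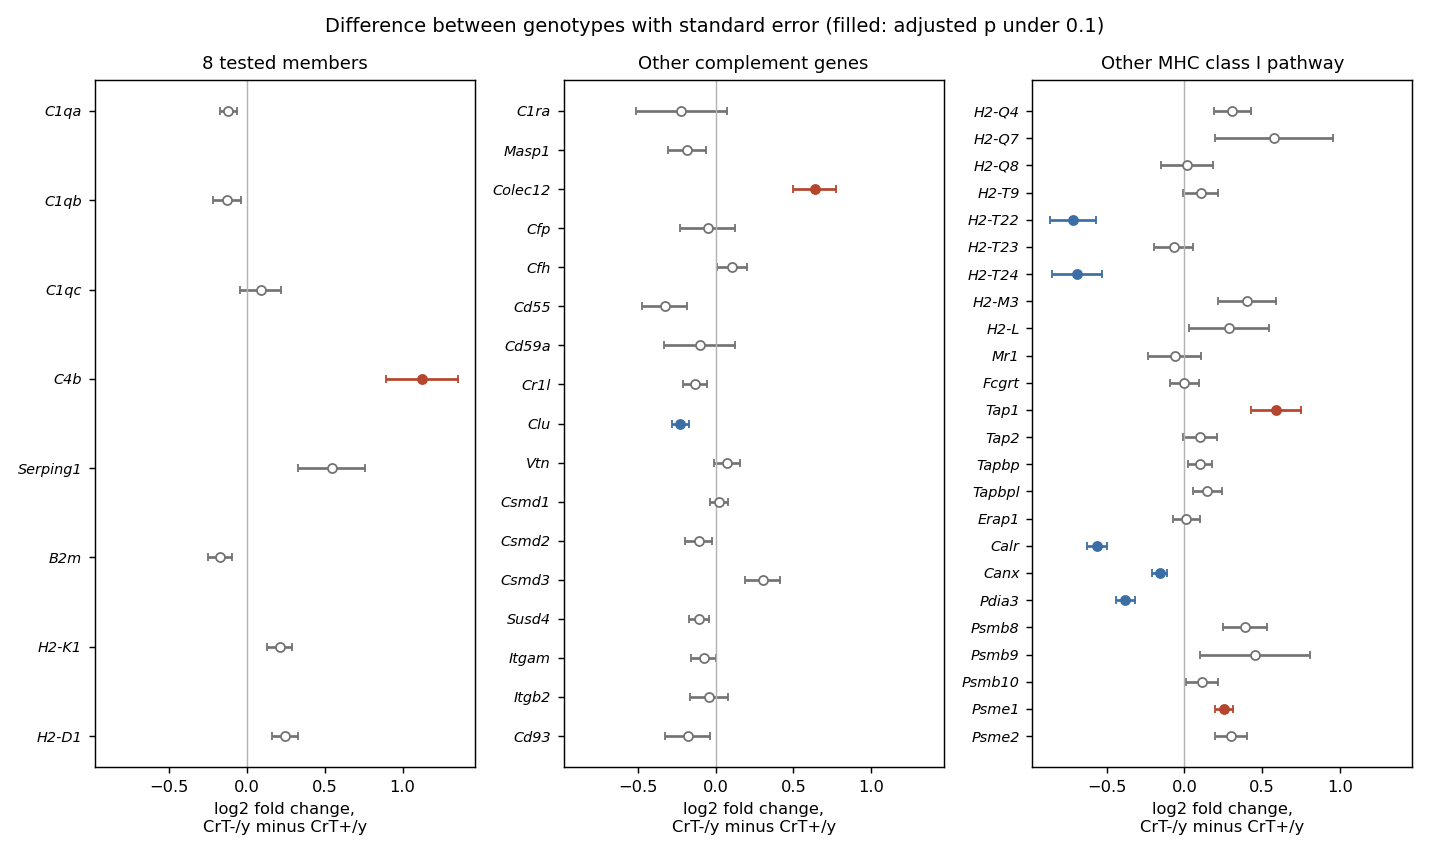
Log2 fold change (CrT-/y minus CrT+/y) with its standard error for the 8 tested members, the 17 other complement genes and the 24 other class I pathway genes that were tested. Filled points have a limma adjusted p under 0.1, in red where higher and blue where lower in CrT-/y, and open grey points do not. C4b, Colec12, Tap1 and Psme1 are filled on the right, and Clu, H2-T22, H2-T24, Calr, Canx and Pdia3 on the left.

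Neighbouring programmes that interferon also controls gave few signals. Over all 12988 tested genes, 3252 had an unadjusted p under 0.05 (limma), so small counts of such genes in a list are not read as a result. Of 19 tested interferon response genes 0 were called and 3 had an unadjusted p under 0.05 (limma). Their median log2 fold change was -0.03. Those 3 were *Bst2*, a membrane tether for viruses (0.42, limma adjusted p = 0.12), *Ifitm3*, which limits viral entry (0.50, adjusted p = 0.19), and *Gbp2*, a guanylate-binding protein (-0.32, adjusted p = 0.19). Of 5 tested MHC class II genes 0 were called and 1 had an unadjusted p under 0.05 (limma), and the median log2 fold change was 0.31. That gene, *H2-Aa*, was at 2.38, 2.45, 2.62 and 1.82 FPKM in CrT-/y and at 0.998, 2.39 and 0.821 FPKM in CrT+/y animals (log2 fold change 0.82, limma adjusted p = 0.15). *H2-Ab1* (0.46, adjusted p = 0.45) and *H2-Eb1* (0.31, adjusted p = 0.60) were highest in CrT+/y animal 2, at 2.81 and 2.30 FPKM. That animal had the highest choroid plexus sum, but its meningeal sum (84.9 FPKM) was below that of CrT-/y animal 3 (96.3 FPKM). In CrT-/y animal 3 *H2-Ab1* was at 2.15 and *H2-Eb1* at 1.86 FPKM. The part of these tissues in the class II values was not tested. *Bst2* and *Ifitm3* were called with array weights and without CrT+/y animal 3, and without CrT+/y animal 2 *H2-Aa* and *H2-Ab1* were.

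The tested genes whose level over the 7 animals was most like that of the members were listed for 3 profiles, as a description with no p. Nearest to *C4b* were *Tmem40* (r = 0.99, rho = 1), *Gpc3* (r = 0.99), *Tap1* (r = 0.99), *Rgs12* (r = 0.98) and *Plekha7* (r = 0.98), and with the genotype means removed r was 0.96 for *Tmem40* and 0.95 for *Tap1*. *Tmem40* was at 1.44 to 1.78 FPKM in CrT-/y and 0.673 to 1.03 FPKM in CrT+/y animals. Nearest to the mean of the C1q chains were *Slc33a1*, *Isg15*, *Aplp1*, *Matn4* and *Slc39a14* (r = 0.95 to 0.97), none of them a microglia marker on the list used here. In that order rho was lower for most, at 0.71, 0.86, 0.96, 0.71 and 0.64. *Isg15*, a ubiquitin-like protein induced by interferon, had r = 0.97 and was at 1.84 to 2.95 FPKM in CrT-/y and 1.77 to 3.91 FPKM in CrT+/y animals. Like *C1qb* and *C1qc*, it was highest in CrT+/y animal 3, so its r leans on that library. Nearest to the mean of the 3 class I genes were *Pemt*, *Fzd7*, *Clec3b*, *A930005H10Rik* and *Gorab* (r = 0.95 to 0.96). That mean is not a profile the 3 share. The r of *B2m* was -0.44 with *H2-K1* (0.07 within genotypes) and -0.37 with *H2-D1* (0.26).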

How the data were processed

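Cortical RNA of 4 CrT-/y and 3 CrT+/y mice (groups from the labels) was sequenced in paired-end mode. Per the study's methods, the authors aligned reads to mm10 with the Tuxedo protocol, kept unique alignments to known exons or junctions with at most 2 mismatches, and deposited FPKM per gene and animal. The processing notes name Bowtie and Cuffnorm. FPKM are not counts and the depth of each library was not used, so no counting intervals are given, and precision rests on 7 animals.

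FPKM plus 0.1 was put on the log2 scale, so fold changes of weak genes are understated. Genes averaging 1 FPKM or more were fitted with limma 3.58.1 (R 4.3.3) on genotype, with a variance trend and Benjamini-Hochberg adjustment, and called at an adjusted p under 0.1. Ratios, sums and correlations were computed in Python 3.11.15 (numpy 2.4.6, pandas 2.3.3) and promoters aligned with Biopython 1.88. Positions and transcripts come from GENCODE M21 (GRCm38) and promoters from RefSeq. The fit was tested on simulated data.

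The members and lists were chosen with earlier results of these data known. Named are all members, each called gene of the 4 pathway lists and the 3 smallest p of each, and the 5 genes most like each of 3 profiles. *C2*, *C5ar1*, *Cr2*, *H2-M5*, *Pirb* and single marker genes were named after their values were seen. The alternatives were pseudocounts of 1 and 0.01, no minimum or 5 FPKM, quantile, upper quartile and median scaling, array weights, no variance trend, a length correction, the replicate number as a block, and each animal left out.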

Additional observations from a re-analysis of the deposited data

Results flagged for a closer look

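The summed microglia markers of CrT-/y animal 3 were 269.264 FPKM, while CrT-/y animals 0, 1 and 2 lay between 285.403 and 288.663 FPKM, and the gap was larger than Dixon's test allows for 4 samples. The CrT+/y animals spanned 269 to 288 FPKM, so the low animal lay within the range of the other genotype. It was 1 of 43 items examined, and chance alone marks about 1 in 20.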

How the results depend on the processing

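*C4b* and the 9 called genes of the pathway lists kept the sign of their log2 fold change in each fit that tested them, and *C1qc* ran from -0.04 to 0.27. Over all tested genes 1318 were called (377 higher, 941 lower), 730 with no minimum level, and between 64 (without CrT-/y animal 1) and 3736 (without CrT+/y animal 3) with 1 animal left out. The split of higher and lower calls moved with the scaling: 528 and 555 with quantile normalization, 604 and 499 with upper quartile scaling, 490 and 527 with median centring, 548 and 655 with the length correction. The 1 member called, *C4b*, was joined by *H2-D1* under quantile normalization and upper quartile scaling (2 each). With 1 animal left out the members called ran from 0 (without CrT-/y animal 1 or 2) to 4 (without CrT+/y animal 3: *C1qc*, *C4b* and *H2-D1* higher, *B2m* lower), with *H2-D1* added without CrT-/y animal 0 and *Serping1* without CrT+/y animal 2. Other complement genes called were 2, 1 at a minimum of 5 FPKM and 0 to 2 with 1 animal left out (0 without CrT-/y animal 1, 2 or 3 or CrT+/y animal 1). With no minimum there were 3 (*Colec12*, *C2* and *C5ar1*, without *Clu*). Other class I pathway genes called were 7, 4 with no minimum and 1 (without CrT-/y animal 1) to 12 (without CrT+/y animal 3) with 1 animal left out. Interferon and class II genes called were 0, 2 with array weights and 0 to 2 with 1 animal left out. Ratios to the astrocyte in place of the microglia marker sum moved *C1qa* from -0.16 to 0.02, *B2m* from -0.21 to -0.03, *H2-K1* from 0.17 to 0.35 and *H2-D1* from 0.21 to 0.39 (log2 of CrT-/y over CrT+/y). The cause of these changes was not tested.

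Same-numbered animals did not deviate together (r = -0.08, 0.05 and -0.05), while r between animals of different number ran from -0.20 to 0.25. These values cannot settle whether same-numbered animals share a litter or batch, and the labels do not say which animals are littermates. With the replicate block, which leaves CrT-/y animal 0 without a partner, 576 genes were called, with 2 members (*C4b* and *H2-D1*), 1 other complement gene (*Colec12*), 4 other class I pathway genes, and 0 interferon or class II genes. FPKM with no counts and groups of 4 and 3 limit the precision of single genes.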
